A study of Mus musculus with 9 samples.

Results

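The strain ratio of liver RNA was set against that of kidney RNA in the same pair of inbred mouse strains. The strain ratio is the log2 ratio of SJL/J over C57BL/6J RNA at a spot of a 2-colour array; the value reported for each gene is its mean on 3 liver arrays minus its mean on 3 kidney arrays. These 6 arrays were part of a series of 9, in which 3 further arrays carried whole brain. Each array carried 23040 spots, of which 16874 were tied to a single gene symbol (15096 genes). Spots whose number is a multiple of 8 had ratios that lay apart from the rest on every array, so the 14692 named spots at other numbers (13407 genes) carry the main account, and the 2182 named spots at multiples of 8 are given separately.

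The mice were males of 8 weeks. RNA of 5 mice of a strain was pooled in equal amounts and labelled, 20 ug at a time, the SJL/J pool with Alexa Fluor 647 and the C57BL/6J pool with Alexa Fluor 555, with no dye swap. The kidney group was SJL/J kidney against C57BL/6J kidney, and the liver group was SJL/J liver against C57BL/6J liver, both untreated as far as the labels say. The 3 arrays of a tissue were repeat hybridisations of the same 2 pools, so every SD, SE and p-value here measures the spread between arrays and not the spread between mice, and each tissue is 1 comparison of 2 pools. The first-channel tissue field of the kidney and liver arrays reads whole brain, while titles, source names and the second channel give kidney and liver; the titles were followed. The table holds ratios without intensities, so the tissue of an array could not be checked against marker genes, and dim spots could not be told from bright ones. The comparison addresses how far the strain difference of 1 organ differs from that of the other, and a dye or spot effect common to both cancels in it. The direction and the log2 base of the ratio are inferred from the channel labels and the values and are not stated in the sources used here.

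Liver and kidney share many metabolic enzymes, since hepatocytes and cells of the proximal tubule both oxidise fatty acids, make glucose and modify foreign compounds. Hepatocytes also secrete most plasma proteins, among them the acute phase proteins, whose transcription rises with inflammatory cytokines through C/EBP and STAT3 factors. PPAR alpha is a nuclear receptor that switches on genes of fatty acid oxidation in both organs during fasting. SJL/J is a strain used widely in autoimmunity research, and C57BL/6J is the reference strain of the mouse genome.

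Replicate arrays of liver and of kidney resembled each other more than they resembled the other of these tissues. Over the named spots away from multiples of 8, Pearson's r between arrays, across spots that share pools and layout, was 0.723 to 0.766 within liver, 0.672 to 0.676 within kidney and 0.081 to 0.203 between them. The median ratio of these spots was 0.00 on each liver array and 0.05 to 0.06 on the kidney arrays. Of the 960 lines of 24 consecutive spots, 2 stood apart in liver: spots 16153 to 16176 had a median difference of 2.20, and spots 22297 to 22320 one of 2.45, against -0.60 to 0.85 in the other lines. Several of the most extreme genes below lie on these lines, and that is stated beside them. Spots that carry the same gene symbol did not resemble each other in the difference between tissues. Over 749 genes with exactly 2 named spots r was -0.035, so each gene named below stands for the value of its spot or spots. Whether the annotation gives each spot its right gene was not tested, since probe sequences were not used here, and a wrong match of symbols to spots would touch every gene name below.

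Brain arrays 1 and 2 also differed from brain array 3 along the direction in which liver differed from kidney. Over the named spots away from multiples of 8, brain arrays 1 and 2 correlated with liver arrays at r = 0.195 to 0.322 and brain array 3 at 0.01 to 0.053, while brain array 3 correlated with kidney arrays at 0.316 to 0.382 and arrays 1 and 2 at 0.118 to 0.258. Brain array 3 correlated with brain arrays 1 and 2 at 0.214 and 0.313, and these 2 with each other at 0.701. By r, every kidney array was thus nearer to brain array 3 than brain array 1 or 2 was. Which tissue brain array 3 carried was not tested. Among the 3457 spots called below, 783 (22.6%) had brain arrays 1 and 2 nearer the liver mean and brain array 3 nearer the kidney mean, against 18.4% of all spots of that class. Brain values are plotted for the 24 most extreme genes and given in words for some of them, as single arrays and with no test.

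A spot was called when limma's moderated test of liver minus kidney, fitted over all 23040 spots and 6 arrays, gave a 2-sided Benjamini-Hochberg adjusted p below 0.05. Away from multiples of 8, 1279 named spots had a higher strain ratio in liver than in kidney (8.71% of the 14692) and 2178 a lower one (14.8%). A difference of at least 2-fold was met by 209 of the higher and 365 of the lower. Liver and kidney arrays did not overlap at 3450 of the 3457 called spots, against 45.3% of all 14692. Counted by gene, 9.26% of the 13407 genes had a spot called higher and 16.0% one called lower, with a median difference over all genes of -0.06.

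The counts depended on the number of arrays and on the centring. Higher and lower calls numbered 644 and 1269 without kidney array 1, 720 and 1451 without kidney array 2, 660 and 1384 without kidney array 3, and 786 and 1337 without liver array 1. With each array centred on the median of the named spots away from multiples of 8, there were 1634 higher and 1819 lower calls, so that higher calls made up 47.3% of the total instead of 37.0%.

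At most called spots the ratio itself was called against 0 in a single tissue, and opposed called ratios were fewer. With no dye swap, a ratio against 0 includes any dye or spot effect, and an uncalled ratio can still contribute to a difference. This bears on every statement below of a difference from liver, from kidney or of opposite sign. Of the 1279 spots called higher, 610 had a called ratio above 0 in liver alone, 406 a called ratio below 0 in kidney alone, and 113 both. Of the 2178 called lower, 866 had a called ratio below 0 in liver alone, 849 a called ratio above 0 in kidney alone, and 242 both. In each tissue by itself, 13.7% of genes had a spot called higher in SJL/J and 15.8% one called lower in liver, and in kidney the shares were 19.6% and 11.9%. The plot of liver against kidney shows all of these spots by their 2 mean ratios.

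**Figure D1:**
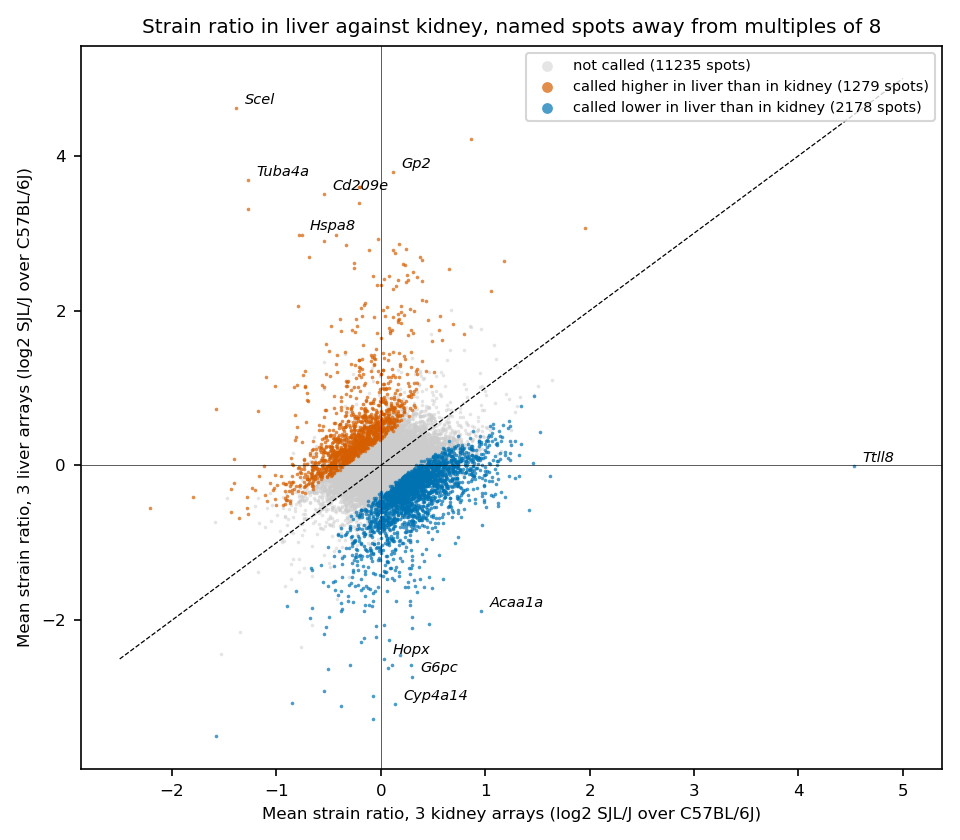
Mean log2 strain ratio of the 3 liver arrays (vertical axis) against that of the 3 kidney arrays (horizontal axis) for 14692 named spots away from multiples of 8, with 1279 spots called higher in liver in orange and 2178 called lower in blue; the dashed line marks equal ratios. Scel at the upper left and Ttll8 at the far right have the largest differences, 6.00 and -4.54.

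The highest differences were at Scel, Tuba4a and 1600010M07Rik, whose spots shared 1 profile over the 9 arrays. Scel encodes sciellin, a protein of cornified epithelia, and its liver arrays read 4.22, 4.55 and 5.09 while its kidney arrays read -2.21, -0.25 and -1.69. The tissues were far apart, kidney array 2 lay near 0 and the other kidney arrays well below it. The difference at Scel was 6.002 ± 0.47 (SE), adjusted p = 0.000273. Tuba4a, an alpha tubulin, had 3.36, 3.47 and 4.22 in liver and -2.10, -0.05 and -1.68 in kidney, a difference of 4.96 ± 0.49 (SE), adjusted p = 0.000786. 1600010M07Rik, a gene known by its clone name, had a difference of 4.59 ± 0.53 (SE), adjusted p = 0.00152. Kidney array 2 was the highest kidney array at all 3 spots. On the brain arrays Scel read 3.66, 3.58 and -1.59, Tuba4a 3.03, 2.75 and -1.59 and 1600010M07Rik 3.09, 2.19 and -1.39, so that brain arrays 1 and 2 were nearer liver and brain array 3 nearer kidney. A second spot of Tuba4a gave the opposite sign, -1.31 ± 0.19 (SE).

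Lcn2 was the acute phase gene with the largest difference. It encodes lipocalin 2, a siderophore-binding protein made by liver and kidney epithelium in inflammation. Its liver arrays read 3.09, 3.996 and 3.10 and its kidney arrays -0.50, -0.04 and -0.08. Every liver array was far above every kidney array, the difference was 3.60 ± 0.26 (SE) with adjusted p = 0.000198, and the brain arrays read 1.17, 1.33 and 1.15. Gp2, the main membrane glycoprotein of pancreatic zymogen granules, read 3.58, 4.06 and 3.73 in liver and 0.12, 0.00 and 0.24 in kidney. The difference at Gp2 was 3.67 ± 0.15 (SE), adjusted p = 2.7e-05, with no overlap; the brain arrays read -1.29, -1.46 and -0.64, and the spot beside it, named Ms4a4c, had 2.25. Hspa8, the constitutive HSC70 chaperone, read 3.78, 2.52 and 2.65 in liver and -0.70, -0.68 and -0.89 in kidney, a difference of 3.74 ± 0.31 (SE), adjusted p = 0.00032. The adjacent spot, named Dmrtb1, had a similar 3.24, and a second Hspa8 spot at a multiple of 8 had -0.39 ± 0.25 (SE), adjusted p = 0.288.

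Gadl1, a decarboxylase related to the glutamate enzymes, read 2.62, 2.34 and 3.96 in liver and -1.39, 0.05 and -1.01 in kidney, a difference of 3.76 ± 0.48 (SE), adjusted p = 0.00213. The liver arrays of Gadl1 were spread over more than 1 log2 unit and still cleared all kidney arrays, and its brain arrays read 0.31, 0.31 and -1.20. Rny1, a small RNA of Ro ribonucleoproteins, read 2.59, 2.52 and 2.97 in liver and -0.85, -0.38 and -0.84 in kidney, a difference of 3.38 ± 0.18 (SE), adjusted p = 6.71e-05. The brain arrays of Rny1 read 1.53, 1.38 and 0.11, with arrays 1 and 2 nearer liver and array 3 nearer kidney, as at Scel. Among the 12 highest, 4 genes, Cd209e (a DC-SIGN family lectin), Serpina1f (an alpha-1-antitrypsin homologue), 1700066C05Rik and Cd244a (the 2B4 receptor of natural killer cells), lie on the line of spots 22297 to 22320. Their differences were 4.04, 3.80, 3.80 and 3.41. After subtraction of line and column medians these became 1.46, 1.25, 1.22 and 0.83, while Scel, Gp2 and Lcn2 kept 6.10, 3.52 and 3.51.

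The lowest difference was at Ttll8, a tubulin glycylase, and it was the 1 gene of the 12 lowest that owed its difference to kidney. Its kidney arrays read 3.40, 5.09 and 5.09, and its liver arrays -0.21, 0.11 and 0.09. The sorted values are the same on all arrays, so 5.09 is the top value of each array and reflects the rank of the spot. The difference was -4.54 ± 0.42 (SE), adjusted p = 0.00055, and the brain arrays lay near 0 at -0.18, -0.40 and 0.08. The other 11 had mean ratios in liver between -3.28 and -1.88.

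Cyp4a14 and Cyp4a10, cytochromes P450 of fatty acid omega-hydroxylation and classical PPAR alpha targets, followed. Cyp4a14 read -2.77, -3.52 and -2.96 in liver and 0.04, 0.25 and 0.12 in kidney, a difference of -3.22 ± 0.19 (SE), adjusted p = 0.000103. Cyp4a10 read -3.52, -3.91 and -2.41 in liver and 0.29, -0.21 and -0.29 in kidney, a difference of -3.21 ± 0.36 (SE), adjusted p = 0.00123. Both are made in liver and kidney, and in neither did the kidney ratio pass its own test. The 2 sequences are close paralogs, so their spots may share signal.

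G6pc, the catalytic subunit of glucose-6-phosphatase that releases free glucose, read -2.73, -2.86 and -2.59 in liver and 0.08, 0.49 and 0.34 in kidney. The difference was -3.03 ± 0.14 (SE), adjusted p = 3.75e-05; every liver array lay below every kidney array, and the brain arrays, at -1.88, -1.72 and -1.03, were also below 0. Acaa1a, the peroxisomal 3-ketoacyl-CoA thiolase, read -1.69, -2.10 and -1.86 in liver and 0.86, 0.95 and 1.07 in kidney. Its difference of -2.85 ± 0.14 (SE), adjusted p = 3.89e-05, joined a lower ratio in liver to a higher one in kidney.

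Selenbp1 and Selenbp2, near-identical selenium-binding proteins of liver whose spots may share signal, had differences of -2.90 ± 0.17 (SE), adjusted p = 0.000103, and -2.69 ± 0.30 (SE), adjusted p = 0.0012. Dio1, the selenoenzyme that activates thyroxine in liver and kidney, read -2.26, -3.33 and -3.72 in liver and -0.30, -0.33 and -0.50 in kidney, a difference of -2.73 ± 0.33 (SE), adjusted p = 0.00173. Oat, ornithine aminotransferase of mitochondria, read -2.59, -2.51 and -2.63 in liver, against 0.17, 0.10 and 0.07 in kidney. The difference at Oat was -2.69 ± 0.10 (SE), adjusted p = 2.7e-05. Hdac1 (a histone deacetylase), Hopx (a homeodomain-only cofactor) and 2200002J24Rik (known by its clone name) completed the 12, at -2.62, -2.53 and -2.87. Each had liver arrays between -2.86 and -2.31 and kidney arrays between 0.00 and 0.42.

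**Figure D2:**
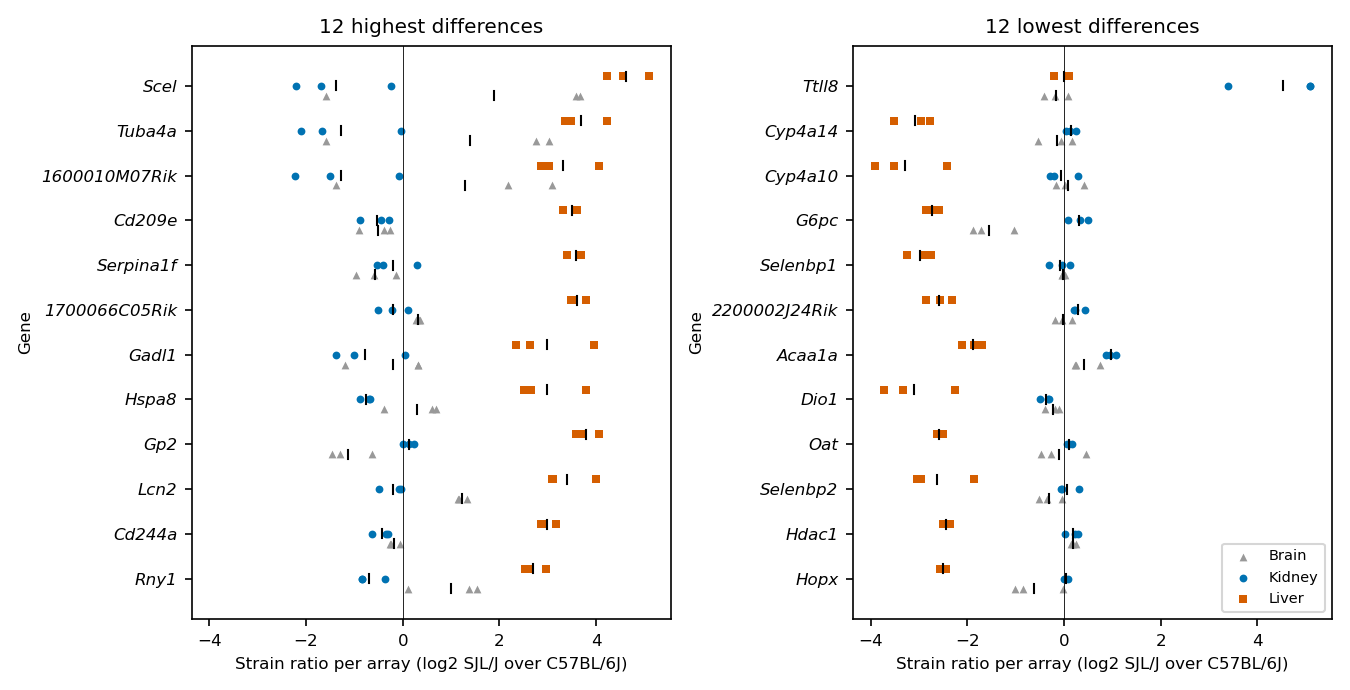
Log2 strain ratio on each array for the 12 genes with the highest differences (left) and the 12 with the lowest (right); orange squares are liver, blue circles kidney and grey triangles brain, and black ticks are means of 3 arrays. Liver and kidney do not overlap at any of the 24, and at Scel, Tuba4a, 1600010M07Rik, Rny1 and G6pc brain arrays 1 and 2 lie nearer the liver mean and brain array 3 nearer the kidney mean.

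Strain ratios of opposite sign, each called in its own tissue, were found at 355 spots, of which 334 met the conditions for naming. The largest 10 were Scel, Tuba4a, 1600010M07Rik, Cd209e, Hspa8, Cd244a, Rny1, Fam120b, G6pc and Acaa1a. G6pc and Acaa1a were lower in liver and higher in kidney, and the other 8 ran the other way. Fam120b, a coactivator of nuclear receptors, had 2.98, 2.76 and 2.82 in liver and -0.31, -0.34 and -0.36 in kidney, on the line of spots 16153 to 16176. After subtraction of line and column medians its difference went from 3.19 to 0.996.

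Counts of list members below are to be read against the 9.26% of all genes called higher and the 16.0% called lower. These shares belong to the main fit. Without 1 array, lower calls over all named spots of the main account fell from 2178 to between 1269 and 1621. They numbered 1563 after subtraction of line and column medians and 1595 with all 9 arrays in the fit. Higher calls went from 1279 to between 644 and 989, to 1220 and to 868 in these fits. List counts from these fits are to be read against these smaller totals. Counts of a few members can move by over 1.5 times with 1 or 2 genes. The lists overlap, so their counts are not separate observations. For example, Pck1 is in the list of glucocorticoid targets and in that of gluconeogenesis. Among 36 gene lists drawn up for liver and kidney biology, acute phase proteins had the most members called higher. Of 29 measured members 15 were called higher and 1 lower, with a median difference of 0.64 against -0.06 over all genes. All 15 had a ratio called above 0 in liver, and 3 a ratio called below 0 in kidney. The members with the largest differences were Lcn2, Orm2, Apcs and Saa3. Orm2, an orosomucoid, read 2.68, 3.21 and 2.88 in liver and 0.05, -0.02 and -0.12 in kidney, a difference of 2.95 ± 0.15 (SE), adjusted p = 5.83e-05. Apcs, serum amyloid P component, the pentraxin that serves as a major acute phase protein of mice, read 2.58, 2.39 and 2.39 in liver and 0.04, 0.10 and 0.08 in kidney. The difference at Apcs was 2.38 ± 0.11 (SE), adjusted p = 3.75e-05. Saa3, a serum amyloid A, read 2.12, 2.26 and 1.57 in liver and 0.16, 0.20 and 0.23 in kidney, a difference of 1.79 ± 0.18 (SE), adjusted p = 0.000786. None of these 3 overlapped between tissues, and their kidney ratios all lay within 0.23 of 0. The Orm and Saa families hold close paralogs whose spots may share signal. The 1 member called lower was Il1rn, the interleukin-1 receptor antagonist, at -0.77, named here after its value was seen.

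The promoters of these 4 genes are printed because these genes were higher together and the factors of the acute phase response have known binding motifs. The sequences are the RefSeq windows of mouse build GRCm38.p6, 250 bases before to 50 bases after the gene start, 5′ to 3′ on the gene's strand. Capitals mark matches on either strand to TTGCNNAA, a C/EBP-type motif, or to TTCNNNGAA, a STAT-type motif, both chosen after the values were seen. Lcn2 is at chr2:32387690-32387989, minus strand; Orm2 at chr4:63362199-63362498, plus strand; Apcs at chr1:172895005-172895304, minus strand; and Saa3 at chr7:46715627-46715926, minus strand.
Lcn2: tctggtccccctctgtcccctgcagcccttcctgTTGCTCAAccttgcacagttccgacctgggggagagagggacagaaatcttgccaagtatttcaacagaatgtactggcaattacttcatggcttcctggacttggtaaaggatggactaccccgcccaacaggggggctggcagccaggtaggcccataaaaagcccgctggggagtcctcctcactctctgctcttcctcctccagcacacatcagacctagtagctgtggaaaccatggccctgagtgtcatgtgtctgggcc
Orm2: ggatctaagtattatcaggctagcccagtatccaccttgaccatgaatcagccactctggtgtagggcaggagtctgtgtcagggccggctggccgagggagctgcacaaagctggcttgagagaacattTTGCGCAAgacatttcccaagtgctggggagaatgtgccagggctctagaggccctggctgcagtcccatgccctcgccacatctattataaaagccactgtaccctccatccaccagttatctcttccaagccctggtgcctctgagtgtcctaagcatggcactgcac
Apcs: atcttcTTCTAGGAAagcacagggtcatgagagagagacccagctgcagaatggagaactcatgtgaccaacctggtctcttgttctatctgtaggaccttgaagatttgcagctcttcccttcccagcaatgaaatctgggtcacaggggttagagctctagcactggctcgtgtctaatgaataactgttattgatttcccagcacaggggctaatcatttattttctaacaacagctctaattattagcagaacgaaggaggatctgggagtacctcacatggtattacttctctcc
Saa3: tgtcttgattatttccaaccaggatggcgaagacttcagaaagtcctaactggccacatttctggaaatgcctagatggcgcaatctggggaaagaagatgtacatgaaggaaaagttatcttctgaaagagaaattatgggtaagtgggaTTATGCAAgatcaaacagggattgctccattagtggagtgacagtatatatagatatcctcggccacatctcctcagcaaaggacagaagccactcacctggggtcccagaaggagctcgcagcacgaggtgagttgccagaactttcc

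Lcn2, Orm2 and Saa3 each held 1 match to the C/EBP-type motif, and Apcs held 1 match to the STAT-type motif. No match of one motif overlapped a match of the other in these windows. Among the 15 acute phase genes called higher, 13 had a promoter in the RefSeq table, of which 9 held TTGCNNAA and 5 held TTCNNNGAA. The motifs occurred in 10.8% and 8.3% of all 32851 promoters of the same length. Over all 24 measured acute phase genes with a promoter, 13 and 6 held them. A match is a match of letters and was not tested as a binding site.

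In 3 lists, of lipid handling, of peroxisomes and of mitochondrial oxidation, ratios were mostly lower in liver and no member was called higher. Of 23 targets of PPAR alpha in lipid handling, 10 were called lower, with a median difference of -0.53. Of these, 8 had a ratio called below 0 in liver. Besides Cyp4a14 and Cyp4a10 they were led by Retsat, which saturates retinol, and Plin2, the coat protein of lipid droplets. Retsat read -2.10, -2.35 and -1.76 in liver and 0.10, 0.37 and -0.37 in kidney, a difference of -2.10 ± 0.22 (SE), adjusted p = 0.000935. Plin2 read -1.50, -2.24 and -1.52 in liver and -0.01, 0.12 and 0.32 in kidney, a difference of -1.90 ± 0.21 (SE), adjusted p = 0.00121. The receptor gene Ppara itself read -1.23, -1.71 and -1.34 in liver and 0.10, 0.13 and -0.16 in kidney. It too was lower in liver without overlap, by a difference of -1.45 ± 0.16 (SE), adjusted p = 0.00106.

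Of 35 genes of peroxisomal oxidation and biogenesis 15 were called lower and none higher, with a median difference of -0.39. After Acaa1a came Hao2, a hydroxyacid oxidase, with -0.59, -0.68 and -0.48 in liver and 1.48, 1.44 and 1.34 in kidney. Its difference of -2.001 ± 0.11 (SE), adjusted p = 7.55e-05, came more from kidney than from liver. Ehhadh and Eci2, the bifunctional enzyme and an enoyl-CoA isomerase, had -1.68 ± 0.22 (SE) and -1.57 ± 0.13 (SE), with adjusted p = 0.00221 and 0.000324. Of 23 genes of mitochondrial beta-oxidation and ketogenesis 15 were called lower, with a median of -0.56. They were led by Cpt2, the inner carnitine palmitoyltransferase, at -1.89 ± 0.15 (SE), Etfa of the electron transfer flavoprotein at -1.61 ± 0.27 (SE), Decr1, a dienoyl-CoA reductase, at -1.54 ± 0.16 (SE), and Hadhb of the trifunctional protein at -1.50 ± 0.17 (SE). Their adjusted p-values were 0.000273, 0.0059, 0.00102 and 0.00122, and none overlapped between tissues. The spots of Hao2 and Cpt2 lie side by side on a line with a median difference of -0.52. After subtraction of line and column medians Hao2 had -1.61 and Cpt2 -1.53.

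Lists of other housekeeping complexes also had medians below that of all genes. Of 65 genes of the respiratory chain and ATP synthase 34 were called lower and 2 higher, with a median of -0.61. Ndufs3 of complex I read -0.49, -0.51 and -0.44 in liver and 1.29, 0.76 and 0.65 in kidney, a difference of -1.38 ± 0.17 (SE), adjusted p = 0.00192. Cox5b and Cox8b of cytochrome oxidase and Cycs, cytochrome c, had -1.31, -1.29 and -1.29. Of 51 cytosolic ribosomal proteins 23 were called lower and none higher, with a median of -0.51. They were led by Rpl27 at -1.21 ± 0.23 (SE) and Rpl6 at -1.04 ± 0.16 (SE), adjusted p = 0.0108 and 0.00446. After subtraction of line and column medians Rpl27 had -0.94 and Rpl6 -0.63. Of 29 proteasome subunits 8 were called lower and none higher, with a median of -0.35, and all 29 differences were below 0; subtraction of line and column medians left 5 called. Psmb7, a catalytic subunit, had -1.15 ± 0.17 (SE), adjusted p = 0.00374.

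The count of ribosomal genes moved with the setting. It was 11 without liver array 1 or kidney array 1, 13 without liver array 2, 14 without kidney array 2, 15 without kidney array 3, and 11 after subtraction of line and column medians. Without kidney array 1 the respiratory chain had 23 members called lower. With all 9 arrays in the fit, the respiratory chain had 22 and the ribosomal proteins 10. Without spots that put brain array 3 at least 1 log2 unit from the mean of arrays 1 and 2, these were 23 and 16. Proteasome subunits kept 8, and all lower calls of the main account went from 2178 to 2129. On brain array 3 the ribosomal list had a median ratio of 0.68, against -0.13 and 0.03 on brain arrays 1 and 2. The respiratory chain had 0.33, against -0.08 and -0.05, and the proteasome 0.31, against -0.19 and -0.01. Gapdh, a glycolytic gene spotted 231 times at multiples of 8, had a median difference of -0.32, with 68 spots called lower, 6 higher and 157 not called. Without intensities, a dependence of the ratio on spot brightness that differs between tissues was not tested.

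**Figure D3:**
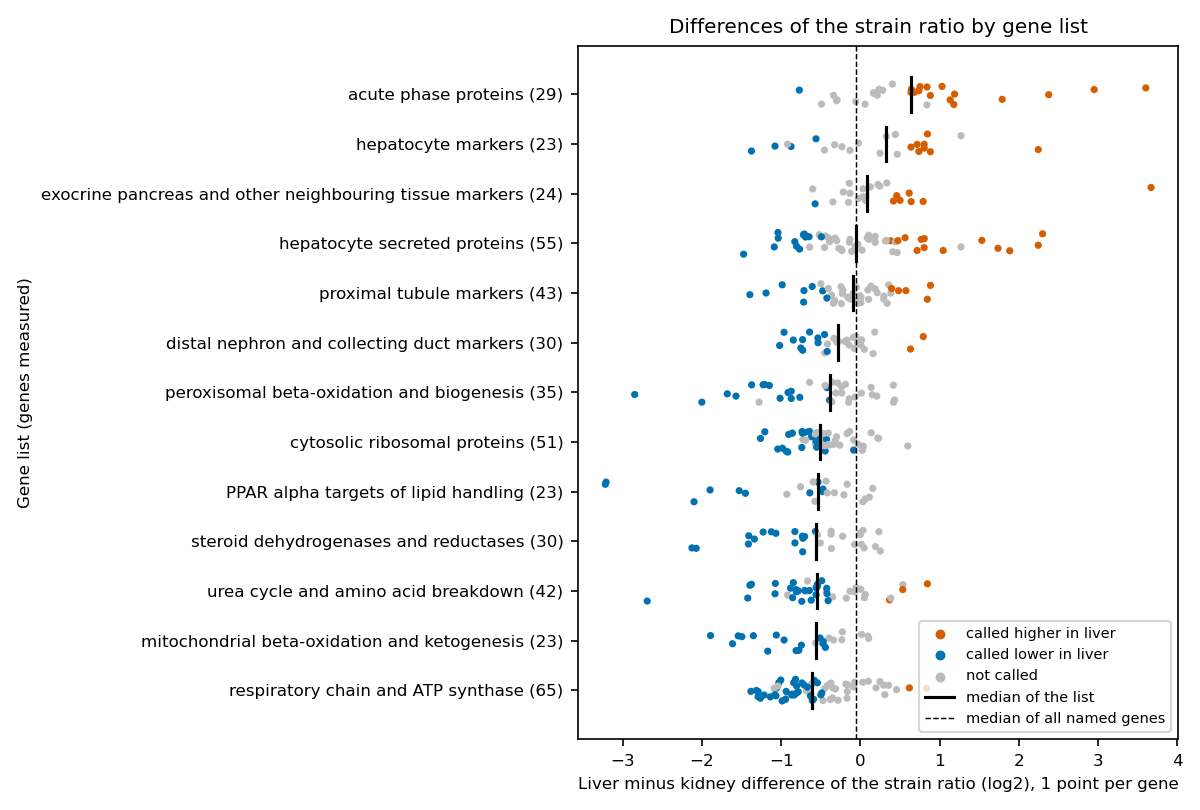
Liver minus kidney difference of the log2 strain ratio for each gene of 13 lists, 1 point per gene (mean of its named spots away from multiples of 8), coloured by whether a spot was called; bars are list medians and the dashed line is the median of all genes, -0.06. Acute phase proteins lie mostly to the right (median 0.64), and the lists of oxidation, amino acid and steroid metabolism to the left (medians -0.39 to -0.61).

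Amino acid breakdown and the urea cycle had mostly lower ratios in liver, with 24 of 42 members called lower, 3 higher and a median of -0.55. Oat led the list, followed by Glud1 (glutamate dehydrogenase) at -1.42 ± 0.15 (SE), Aadat (aminoadipate aminotransferase) at -1.39 ± 0.12 (SE) and Tdo2 (tryptophan dioxygenase) at -1.37 ± 0.17 (SE). Their adjusted p-values were 0.000873, 0.000358 and 0.00183. In gluconeogenesis and glycogen, 9 of 22 were called lower and 1 higher, with a median of -0.26, and 5 were lower without kidney array 2 or kidney array 3. Pck1, the cytosolic carboxykinase that commits carbon to glucose, read -0.58, 0.17 and -0.18 in liver and 1.64, 0.99 and 0.49 in kidney, a difference of -1.24 ± 0.30 (SE), adjusted p = 0.0229. The difference at Pck1 came from kidney, and it lost its call without liver array 1, liver array 3 or kidney array 2. Gyg, the glycogen primer glycogenin, had -1.90 ± 0.20 (SE), adjusted p = 0.00106. The 1 member called higher was Gys1, the muscle-type glycogen synthase, at 1.79 ± 0.13 (SE), adjusted p = 0.000237, while a second spot of Gys1 had -0.27 ± 0.14 (SE), adjusted p = 0.18.

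Steroid dehydrogenases and reductases had 15 of 30 members called lower and none higher, with a median of -0.55. Hsd3b1 and Hsd3b7, 3-beta-hydroxysteroid dehydrogenases of steroid and of bile acid synthesis, read -2.76, -2.59 and -2.54 and -2.05, -2.26 and -2.38 in liver. Against kidney values of -0.47, -0.34 and -0.70 and -0.08, -0.19 and -0.21, the differences were -2.13 ± 0.13 (SE) and -2.07 ± 0.12 (SE), adjusted p = 0.000115 and 0.000103. Bile acid synthesis and transport had 7 of 24 called lower and none higher, with a median of -0.30. Slc27a5, the liver's bile acid-CoA ligase, had -1.35 ± 0.20 (SE), adjusted p = 0.0039. Its spot lies on the same line as those of Hao2 and Cpt2, and -0.96 was left after subtraction of line and column medians.

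Enzymes of foreign compound metabolism were mostly called lower where they were called. Of 43 cytochromes P450 outside Cyp4, 13 were called lower and 3 higher, with a median of -0.16, led by the near-identical Cyp3a44 and Cyp3a16 at -2.03 ± 0.30 (SE) and -1.73 ± 0.14 (SE), adjusted p = 0.00368 and 0.000304. Of 21 glutathione S-transferases 7 were called lower and none higher, with a median of -0.44. Gstm2 read -1.93, -2.37 and -1.83 in liver and 0.88, 0.31 and 0.21 in kidney, a difference of -2.51 ± 0.21 (SE), adjusted p = 0.00038. Gstm3, at -1.82 ± 0.47 (SE), had liver arrays as far apart as -2.67 and -0.43 and kept its call in only 2 of the 6 fits that left out an array. Of 16 glucuronosyl- and sulfotransferases 7 were called lower and 2 higher, with a median of -0.38. Lower calls fell to 2 without kidney array 1 and to 3 without kidney array 2. Ugt2b1, a glucuronosyltransferase of liver, had -2.08 ± 0.14 (SE), adjusted p = 0.000163. Sult1c2, a sulfotransferase of kidney and stomach, ran the other way, with 1.23, 1.56 and 3.40 in liver and -1.30, -0.37 and -0.71 in kidney, a difference of 2.86 ± 0.53 (SE), adjusted p = 0.009. Among 33 NRF2 targets and antioxidant enzymes 9 were called lower and 1 higher, with a median of -0.38. The lower calls numbered 3 without kidney array 1 or kidney array 3, 5 without liver array 1, and 3 after subtraction of line and column medians. Txn1, thioredoxin, had -1.54 ± 0.19 (SE), adjusted p = 0.00195, and the 1 higher was Hmox1, heme oxygenase 1, at 0.79 ± 0.13 (SE), adjusted p = 0.00567. Among 26 genes of selenium handling 9 were called lower and 2 higher, with a median of -0.28, and 5 were lower without kidney array 1. Selenom, a selenoprotein of the endoplasmic reticulum, was among the higher at 0.95 ± 0.16 (SE), adjusted p = 0.0066.

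**Figure D4:**
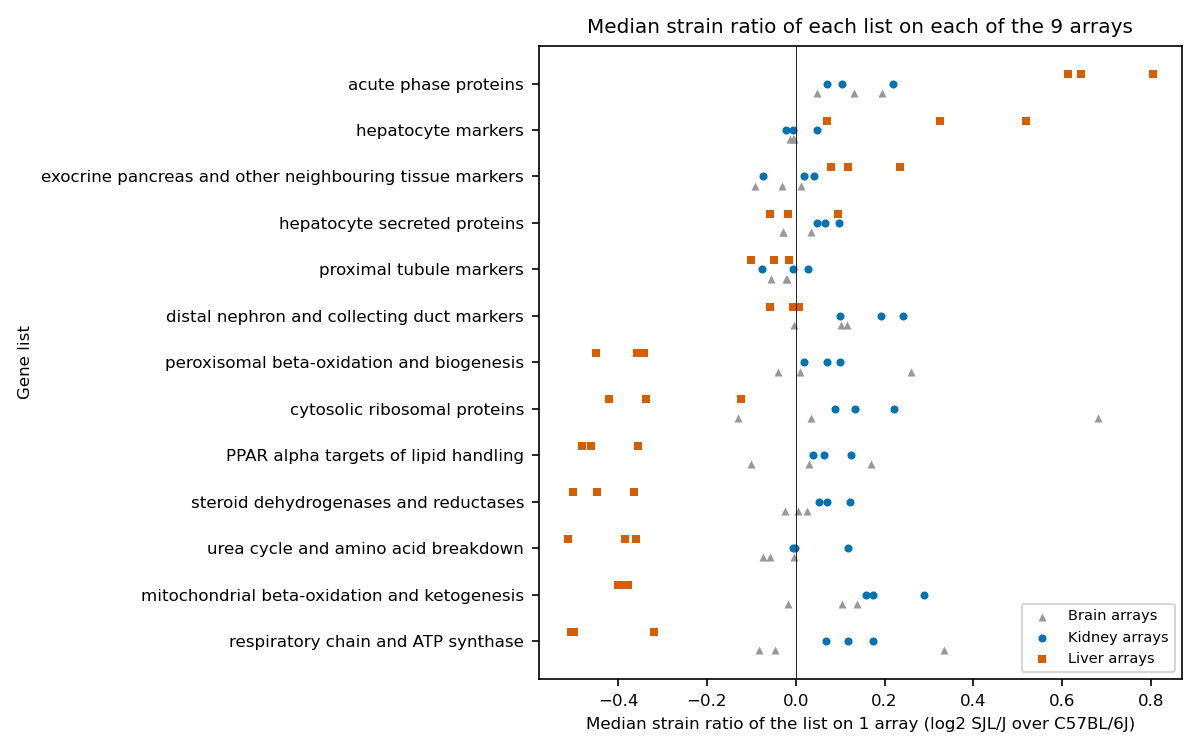
Median log2 strain ratio of each of 13 gene lists on each of the 9 arrays; orange squares are liver, blue circles kidney and grey triangles brain. The liver arrays of the acute phase list lie between 0.61 and 0.80 and its kidney arrays between 0.07 and 0.22, while brain array 3 stands apart for ribosomal proteins at 0.68.

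Hepatocyte gene sets outside metabolism were divided. Of 55 hepatocyte secreted proteins 13 were called higher and 12 lower, with a median of -0.06, equal to that of all genes, and 7 were lower after subtraction of line and column medians. Apoc1, a small apolipoprotein, read 0.35, 0.86 and 0.97 in liver and -1.75, -1.91 and -1.06 in kidney, a difference of 2.30 ± 0.25 (SE), adjusted p = 0.0011, in which kidney took the larger share. Serpina1a, Serpina1b and Serpina1c, alpha-1-antitrypsin genes, had 2.25 ± 0.28 (SE), 1.89 ± 0.21 (SE) and 1.74 ± 0.22 (SE), adjusted p = 0.00198, 0.00114 and 0.00206. Each had a ratio above 0 on every liver array and below 0 on every kidney array. The Serpina1 genes are near-identical, so their spots cannot be taken as separate measurements. Of 23 hepatocyte markers 8 were called higher and 4 lower, with a median of 0.33, and 5 were higher without kidney array 1. A spot of Mup3, a major urinary protein of a large family of near-identical genes, had 1.72 ± 0.24 (SE), adjusted p = 0.00333, and a second one -0.11 ± 0.29 (SE), adjusted p = 0.813. Hal, histidine ammonia-lyase, was among the lower at -1.08 ± 0.18 (SE), adjusted p = 0.0065. Of 44 genes that hepatocytes and proximal tubule share, 16 were called lower and 4 higher, with a median of -0.26.

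Markers of the distal nephron were called lower at 36.7%, above the 16.0% of all genes, while proximal tubule markers, at 18.6% lower and 11.6% higher, were near the shares of all genes. Of 30 markers of the distal nephron and collecting duct 11 were called lower and 2 higher, with a median of -0.29, and 8 of the 11 had a ratio called above 0 in kidney. The lower calls numbered 6 without kidney array 3, 7 without kidney array 1, kidney array 2 or liver array 1, and 6 after subtraction of line and column medians. Scnn1a, the alpha subunit of the epithelial sodium channel, read -0.38, -0.57 and -0.07 in liver and 0.76, 0.63 and 0.48 in kidney, a difference of -0.96 ± 0.15 (SE), adjusted p = 0.00535. Ptger3, a prostaglandin E receptor, had -1.02 ± 0.23 (SE), adjusted p = 0.0176, a call lost without kidney array 2 or kidney array 3. Of 43 proximal tubule markers 8 were called lower and 5 higher, with a median of -0.09. The lower calls numbered 4 without kidney array 1 or kidney array 3 and 5 without liver array 1 or liver array 2. The higher calls numbered 2 without liver array 1 or kidney array 3 and 3 without liver array 2 or kidney array 2. Kap, the androgen-regulated kidney protein, read -0.98, -0.67 and -0.89 in kidney and -0.07, 0.03 and 0.04 in liver, a difference of 0.85 ± 0.12 (SE), adjusted p = 0.00334. Mep1b, a brush border metalloprotease subunit, had 0.89 ± 0.12 (SE), adjusted p = 0.00308, and a second spot at a multiple of 8 had 0.11 ± 0.12 (SE), adjusted p = 0.525. Ddc, which makes dopamine in the tubule, was lower through liver, at -1.19 ± 0.11 (SE), adjusted p = 0.000612. Of 17 glomerular and juxtaglomerular markers 2 were called higher and 1 lower, with a median of 0.01. Synpo, synaptopodin of podocytes, had 0.52 ± 0.11 (SE), adjusted p = 0.0143, with a ratio below 0 on all kidney arrays and a call lost without kidney array 1. A second spot of Synpo had 0.25 ± 0.18 (SE), adjusted p = 0.347.

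Of 35 organic solute carriers and pumps 4 were called higher and 4 lower, with a median of -0.06. Slc28a3, a concentrative nucleoside transporter, read 2.35, 2.31 and 2.28 in liver and 0.14, 0.11 and 0.17 in kidney, among the tightest values of any named gene. Its difference was 2.17 ± 0.10 (SE), adjusted p = 3.75e-05. Abcb1a, a P-glycoprotein, had -1.45 ± 0.30 (SE), adjusted p = 0.0134.

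The lists of fatty acid and cholesterol synthesis had medians near that of all genes. Of 29 genes of fatty acid synthesis and desaturation 7 were called lower and 4 higher, with a median of -0.06. Fasn, fatty acid synthase, was lower at -1.18 ± 0.18 (SE), adjusted p = 0.00439. Of 19 genes of cholesterol synthesis and uptake 4 were called lower and 1 higher, with a median of -0.07; the 1 higher was Insig1, the sterol-regulated anchor of SCAP, at 0.95 ± 0.22 (SE), adjusted p = 0.0193, a call lost without liver array 1, liver array 3, kidney array 1 or kidney array 3. Of 37 nuclear receptors and transcription factors 8 were called lower and 6 higher, with a median of -0.01. Beside Ppara, Nr1i3, the xenobiotic receptor CAR, was lower at -1.18 ± 0.24 (SE), adjusted p = 0.0133, and Rxrb, a retinoid X receptor, was higher at 1.52 ± 0.22 (SE), adjusted p = 0.00349. Of 19 circadian clock genes 1 was called higher and 1 lower, with a median of -0.06.

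Among 15 metallothioneins and glucocorticoid targets 2 were called higher and 4 lower, with a median of -0.21. Mt1, the metal-binding metallothionein 1, read 4.80, 3.85 and 3.996 in liver and 1.27, 0.55 and 0.77 in kidney, a difference of 3.35 ± 0.28 (SE), adjusted p = 0.000334. Its spot lies on the line 16153 to 16176, and the difference was 1.19 after subtraction of line and column medians. Tsc22d3, the glucocorticoid-induced leucine zipper, had -1.06 ± 0.17 (SE), adjusted p = 0.00555.

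Heat shock proteins and chaperones held 5 of 42 members called higher and 13 lower, with 1 of them called both ways at different spots and a median of -0.12. There were 8 lower calls without kidney array 2, and 8 after subtraction of line and column medians. Dnajb1, an HSP40 cochaperone, read 2.33, 3.30 and 2.75 in liver and 0.20, 0.31 and 0.21 in kidney, a difference of 2.55 ± 0.22 (SE), adjusted p = 0.000436. Hspb1, HSP25, was lower at -1.33 ± 0.13 (SE), adjusted p = 0.00084, with kidney ratios from 0.77 to 1.20. Hspa5, the BiP chaperone, gave 1.75 at one spot and -1.22 at another, both called. Of 20 genes of iron handling 5 were called higher and 5 lower, with a median of 0.08, where Tfrc, the transferrin receptor, counts in both directions. Tfrc had -0.72 at one spot and 2.20 at a spot on the line 16153 to 16176, where 0.01 was left after subtraction of line and column medians. Without kidney array 2 there were 3 higher, and without kidney array 1 there were 3 lower. Slc11a2, the DMT1 iron transporter, had -0.87 ± 0.12 (SE), adjusted p = 0.00295.

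Macrophage markers, of which 16.0% were lower and 3 of 25 higher, and interferon-induced genes, at 12.2% each way, were called at shares near those of all genes. In bulk RNA, fewer cells of a type and less RNA per cell cannot be told apart. Of 30 genes of MHC class II and antigen presentation 8 were called lower and 4 higher, with a median of -0.12, and the lower calls numbered 4 without liver array 3 and 5 without liver array 1. H2-Eb1, a class II beta chain, read -1.61, -0.88 and -0.52 in liver and 0.29, 0.48 and 1.36 in kidney, a difference of -1.71 ± 0.34 (SE), adjusted p = 0.0119. The H2 genes are polymorphic between strains, and an effect of sequence on hybridisation was not tested. Of 41 interferon-induced genes 5 were called higher and 5 lower, with a median of 0.00. The lower calls numbered 1 without liver array 1, 3 without liver array 3 or kidney array 2, and 2 without any other 1 array. The higher calls numbered 2 without kidney array 2 and 3 without liver array 3 or kidney array 1. Trim25, a ubiquitin ligase, was lower at -1.46 ± 0.21 (SE) and Irgm2, an immunity-related GTPase, higher at 1.26 ± 0.11 (SE), adjusted p = 0.00335 and 0.000462. Of 25 macrophage and Kupffer cell markers 3 were called higher and 4 lower, with a median of 0.05. Adgre1, which encodes the F4/80 antigen, had -0.96 ± 0.16 (SE), adjusted p = 0.00682, through kidney ratios of 0.64, 1.19 and 0.93. Of 27 lymphocyte and granulocyte markers 3 were called higher and 1 lower, with a median of 0.11.

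Of 15 blood and erythroid genes 4 were called higher and 5 lower, with Tfrc in both directions and a median of 0.03. There were 3 lower calls without liver array 1, liver array 2, kidney array 1 or kidney array 3. Alas2, the erythroid enzyme of heme synthesis, had -2.26 ± 0.18 (SE), adjusted p = 0.000288, and Hba-a1, an alpha globin, had 1.21 ± 0.20 (SE), adjusted p = 0.00551. These erythroid genes ran in opposite directions. Of 24 markers of exocrine pancreas and other neighbouring tissue 7 were called higher and 1 lower, with a median of 0.09. The higher calls numbered 3 without kidney array 1 or kidney array 3 and 4 without kidney array 2 or liver array 3. Besides Gp2 they were led by Cela3b, Clps and Cpb1, which encode an elastase, colipase and a carboxypeptidase, at 0.79, 0.64 and 0.62, of which Cpb1 lost its call without kidney array 1 or kidney array 3. The part of pancreatic RNA in these values was not tested.

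Genes with more than 1 named spot showed how far a spot can stand for its gene. Of 864 such genes away from multiples of 8, 356 had at least 1 called spot, 16 had all spots called with 1 sign, and 28 had spots called in both directions. Over the 749 genes with exactly 2 spots the differences at the 2 spots had Pearson's r = -0.035 and the same sign at 50.3%. Of the 31 with both spots called, 15 had the same sign and 16 opposite signs. The differences of single genes in this account are therefore those of single spots, except where more are named. In the runs along chromosomes below they are means over the spots of a gene.

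**Figure D5:**
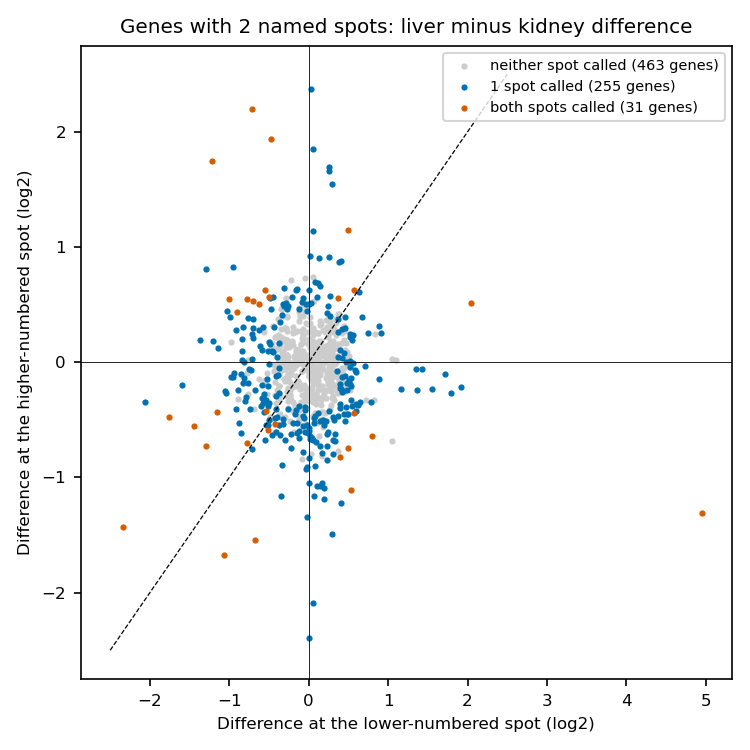
Liver minus kidney difference of the log2 strain ratio at the higher-numbered spot (vertical axis) against that at the lower-numbered spot (horizontal axis) for 749 genes with exactly 2 named spots, coloured by how many were called; the dashed line marks equality. The points do not follow the line (r = -0.035), and the 31 genes with both spots called fall in all 4 quadrants.

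Of the 16 genes whose spots away from multiples of 8 all moved 1 way, 5 were higher and 11 lower. Trf, transferrin, the iron carrier of plasma, was higher at all 4 of its spots, with differences of 0.83 ± 0.17 (SE), 0.69 ± 0.11 (SE), 0.62 ± 0.12 (SE) and 1.07 ± 0.21 (SE). The adjusted p-values were 0.0129, 0.00452, 0.0119 and 0.0111, and all 4 calls held in each fit that left out an array. Ankrd40, an ankyrin repeat protein, had 2.04 and 0.51. The chaperonin gene Cct4 had 0.57 and 0.63, the kallikrein pseudogene Klk1b2-ps 0.49 and 1.15, and the dynein gene Dnah17 0.36 and 0.56. Among the lower, Appbp2, a binding partner of the amyloid precursor protein, read -1.99, -2.40 and -2.37 and -1.02, -1.39 and -1.72 in liver at its 2 spots. Its differences were -2.33 ± 0.14 (SE) and -1.43 ± 0.19 (SE), adjusted p = 0.000103 and 0.00283. Slc38a4, a neutral amino acid transporter of liver, had -1.30 and -0.73, and Pmp22, a myelin protein, -0.68 and -1.54. For 2900019G14Rik they were -1.06 and -1.67, for Fabp9, a fatty acid-binding protein of testis, -1.76 and -0.48, and for Ppp2r5d, a phosphatase subunit, -1.44 and -0.56. Another spot of Ppp2r5d, at a multiple of 8, had -0.14 ± 0.10 (SE), adjusted p = 0.352. Of these genes, Ankrd40, Cct4, Klk1b2-ps, Dnah17, Slc38a4, Pmp22, Fabp9 and Ppp2r5d each had a spot that lost its call in 3 or more of the 6 fits that left out an array.

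Along the chromosomes, in the order of the RefSeq table, 20 runs of at least 4 adjacent measured genes were called in 1 direction. Of these, 4 were higher and 16 lower, where 9.26% of all genes were called higher and 16.0% lower. The number of runs that such shares would give without any tie between neighbours was not tested. A gene counted where any of its spots was called, and its value is the mean over its spots. The runs named were chosen after their values were seen. The longest held 8 kallikrein genes and pseudogenes from Klk5 to Klk1b14-ps, all higher, from 0.42 to 1.11. A run of 5 higher genes was the Serpina1 cluster, from Serpina1e at 1.53 to Serpina1f at 3.80. The spot of Serpina1f lies on the line 22297 to 22320, and 1.25 was left after subtraction of line and column medians. A run of 6 lower genes went from Ugt2b1 at -2.08 through Ugt2b5, Ugt2b37, Ugt2a3 and Ugt2a1 to Sult1b1 at -0.65. Gstm6, Gstm3, Gstm2 and Gstm1 were lower by -1.77, -1.82, -2.51 and -0.44, and Hsd3b2, Hsd3b3, Hsd3b1 and Hao2 by -0.73, -0.70, -2.13 and -2.0005. Apart from Sult1b1 and Hao2, which end the Ugt2 and Hsd3b runs and belong to other families, the genes of these runs have relatives beside them whose spots may share signal. A run of Drp2, Timm8a1, Btk, Gla and Hnrnph2, all lower, joined unrelated genes.

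At multiples of 8 the balance of calls was turned round. Of 2182 named spots there, 571 were called higher (26.2%) and 181 lower (8.3%), with a median difference of 0.19 against -0.05 elsewhere. Among them, 231 were repeated spots of Gapdh, of which 68 were called lower and 6 higher. Without Gapdh the median difference was 0.24. The median ratio of all 2182 was -0.22 in liver and -0.34 in kidney, below 0 in both tissues and lower in kidney. Subtraction of line and column medians gave 306 higher and 301 lower. The highest were 1700086P04Rik at 3.87 ± 0.10 (SE), Abl1 at 3.71, Manbal at 3.43 and Dmrtb1 at 3.24, of which Abl1 and Manbal lie on the 2 lines that stood apart. 1700086P04Rik read 3.13, 3.15 and 3.05 in liver and -0.78, -0.74 and -0.75 in kidney, adjusted p = 6.95e-06. Abl1, a tyrosine kinase, had 0.13 ± 0.16 (SE) at a spot away from multiples of 8. The lowest were 2810030D12Rik at -1.96 ± 0.17 (SE), a spot of Gapdh at -1.56 ± 0.42 (SE) (a call lost without any 1 of the liver arrays), Abcc3 (an organic anion pump of hepatocytes) at -1.55 ± 0.11 (SE) and Acot1 (a PPAR alpha-regulated acyl-CoA thioesterase) at -1.34 ± 0.23 (SE). The acute phase genes measured only there, 3 in number, were called higher, namely Socs3 at 1.20, Lbp at 1.60 and Stat3 at 0.59, named here after their values were seen.

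Nnt, the mitochondrial transhydrogenase that carries a deletion in C57BL/6J, had 0.72, 0.51 and 0.20 in liver and 0.15, 1.05 and 0.80 in kidney. Its ratio was above 0 on all 6 arrays, and the difference of -0.19 ± 0.24 (SE), adjusted p = 0.593, did not pass the test and was 0.0033 without kidney array 2. The 1 spot of Gapdh away from multiples of 8 had -0.15 ± 0.18 (SE), adjusted p = 0.578, and 0.02 without liver array 1.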

How the data were processed

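Log2 strain ratios of 23040 spots on 9 arrays were taken from the table deposited by the authors. The sorted values were the same on all arrays, with a median of 0.0141. R 2.0.0 and limma are named in the submitters' processing notes; how background and within-array scale were treated is not given in the sources used here. Genes come from the platform annotation, with 16196 single-symbol spots matched by gene ID to RefSeq.

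With R 4.3.3, limma 3.58.1 (eBayes after lmFit, Benjamini-Hochberg over all spots) compared 3 liver with 3 kidney arrays, as tested on simulated data. Tables and plots used Python 3.11.15, pandas 2.3.3, numpy 2.4.6 and matplotlib 3.10.9. Named were, among spots called also with line and column medians subtracted and without overlap, the 12 highest and 12 lowest, the 10 largest of opposite sign and up to 4 per list; the 4 highest and 4 lowest at multiples of 8, Gapdh, Nnt, and up to 6 genes at each end with all spots called were added. Alternatives were centring, line and column medians, all 9 arrays, a replicate block, named spots only, array weights, robust moderation, spots that split the brain arrays left out, a 2-fold minimum and leaving out arrays. Members and lists were chosen with earlier results of these data known.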

Additional observations from a re-analysis of the deposited data

Results flagged for a closer look

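At 355 spots the strain ratio was called with opposite signs in liver and kidney, and limma's test of the difference itself passed; the 10 largest among the 334 that met the conditions for naming are given. The difference was 6.00 at Scel, 4.96 at Tuba4a, 4.59 at 1600010M07Rik and 3.74 at Hspa8. It was 4.04 at Cd209e, 3.41 at Cd244a and 3.19 at Fam120b, which lie on the 2 lines of spots that stood apart in liver, and 3.38 at Rny1. At G6pc it was -3.03 and at Acaa1a -2.85. Each compares 1 pair of pools per tissue, and the sign within a tissue includes any dye or spot effect.

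Spots with no gene symbol, which the comparisons of genes leave out, also differed between liver and kidney. Of 6032 such spots, 1007 were called higher in liver and 536 lower. That is 25.6% called, with 65.3% of the calls higher. For named spots away from multiples of 8 the shares were 23.5% and 37.0%, and at multiples of 8 they were 34.5% and 75.9%. The unnamed spots include multiples of 8, which were not set apart here.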

How the results depend on the processing

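The counts of calls moved most with a required difference of at least 2-fold. It left 209 higher and 365 lower named spots away from multiples of 8, and 140 and 19 at multiples of 8. In the lists it left 8 acute phase genes called higher, and called lower 6 PPAR alpha targets, 9 peroxisomal, 7 mitochondrial oxidation, 12 respiratory chain, 3 ribosomal, 6 amino acid breakdown and 8 steroid dehydrogenase genes. After subtraction of line and column medians, multiples of 8 had 306 higher and 301 lower calls, and 11 ribosomal genes were lower. With all 9 arrays in the fit, multiples of 8 had 78 lower calls, the respiratory chain 22 and the ribosomal list 10. With spots that split the brain arrays left out, the respiratory chain had 23 lower calls and the ribosomal list 16. Leaving out 1 array at a time gave 644 to 989 higher and 1269 to 1621 lower calls, 83 to 135 lower calls at multiples of 8, and 11 to 21 ribosomal genes, from fewer arrays in each fit. No named spot that was called changed sign. The uncalled differences at Nnt and at the Gapdh spot away from multiples of 8 crossed 0 without 1 array, as did list medians near 0 under some alternatives, namely fatty acid synthesis, hepatocyte secreted proteins, proximal tubule, glomerular, solute carrier, nuclear receptor, interferon, blood and iron lists.

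Replicate numbers did not pair the arrays, since deviations of same-numbered liver and kidney arrays correlated at 0.002, -0.064 and -0.033, and 0 liver arrays had their best match in the kidney array of their number. With the number as a block there were 785 higher calls, and 113 lower calls at multiples of 8. Without intensities, precision at dim spots is unknown, and the number of arrays of 1 pair of pools per tissue limits every test.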
